A study of Rattus norvegicus with 28 samples.

Results

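Chronic lung injury without mechanical ventilation was followed in 8 of the 28 RNA sequencing libraries of a study of Sprague Dawley rats. They are all 5 libraries labelled control_chronic, from lungs taken 14 days after the injury was induced, and all 3 libraries labelled control_blank, from animals with no earlier lung injury. Both groups were left unventilated, and in all of them the tissue was the right upper lobe. The agent that induced the injury is not given in the sources used here, and neither are age, sex or genotype. A further 4 groups serve below to compare injury labelled chronic with and without ventilation. At a constant tidal volume, chronic_VCV (n = 3) is set against healthy_VCV (n = 4). At a tidal volume that varied, chronic_noisy (n = 3) is set against healthy_noisy (n = 3). The labels number the libraries but do not say that each came from a separate animal, so p-values measure the spread between libraries. In the main test that spread was estimated jointly within all 8 groups of the 28 libraries. These include acute_VCV and acute_noisy, which are not described here.

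The alveolus exchanges gas across flat type 1 cells and a net of capillaries, while cuboidal type 2 cells make surfactant and renew the epithelium. Smooth muscle rings the airways and arteries with a contractile apparatus of actin, myosin and tropomyosin, and in rodents heart muscle cells extend from the left atrium into the walls of the pulmonary veins. Injured lungs commonly pass through inflammation, division of surviving cells and deposition of collagen by fibroblasts before they heal or scar.

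Levels are normalised read counts, that is, reads per gene divided by 1 size factor per library. Changes are differences in log2(normalised read count + 1), control_chronic minus control_blank, with their standard error. They come from limma, with p-values adjusted by the Benjamini-Hochberg method over 14908 genes and a threshold of 0.05. Where 5 and then 3 levels are listed, the libraries run in order of their label, control_chronic_113 to control_chronic_117 and then control_blank_016, control_blank_021 and control_blank_074.

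Depth was 6024093 to 17162741 reads in control_chronic and 22277745 to 30960809 reads in control_blank, so the injured libraries were all shallower. The library control_blank_016 stood apart: its median rank correlation with the other 7 libraries was 0.943, against 0.972 to 0.985 for each of the others, and it lay at -85.7 on a first principal component that placed the other control_blank libraries at -39.0 and -10.7 and control_chronic at 13.3 to 35.0. Title numbers begin with 18 in control_chronic and with 12 in control_blank. What those numbers stand for is not stated, and they cannot be told apart from the injury. Lung markers were present at high levels in both groups. Surfactant protein C (Sftpc) lay between 302130 and 374550 in control_chronic and between 289370 and 453170 in control_blank, and the type 1 cell receptor Ager between 52004 and 72570 in control_chronic and between 59869 and 65422 in control_blank.

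Of the genes tested, 2214 passed the threshold (14.9%), of which 1386 were higher in control_chronic (9.3%) and 828 were lower (5.55%). The edgeR quasi-likelihood test on the recovered reads with TMM scaling called 710 higher (4.76%) and 1139 lower (7.64%), and with the deposited scaling 871 higher (5.84%) and 798 lower (5.35%), while 708 and 817 genes were called in the same direction by limma and by edgeR with TMM scaling. A limma fit of only these 2 groups called 425 higher (2.85%) and 441 lower (2.96%). Leaving out control_blank_016 left 106 higher (0.711%) and 98 lower (0.657%). In the main test and in each of 16 alternatives, 73 genes were higher (0.49%) and 82 lower (0.55%), and these are called robust here. Levels did not overlap between the groups for 1288 higher genes (8.64%) and 1539 lower ones (10.3%). Members of each gene list are read against the shares of 9.3% and 5.55%. The lists and members were chosen with earlier results of these data known, so a share above these is a description, not a test.

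**Figure D1:**
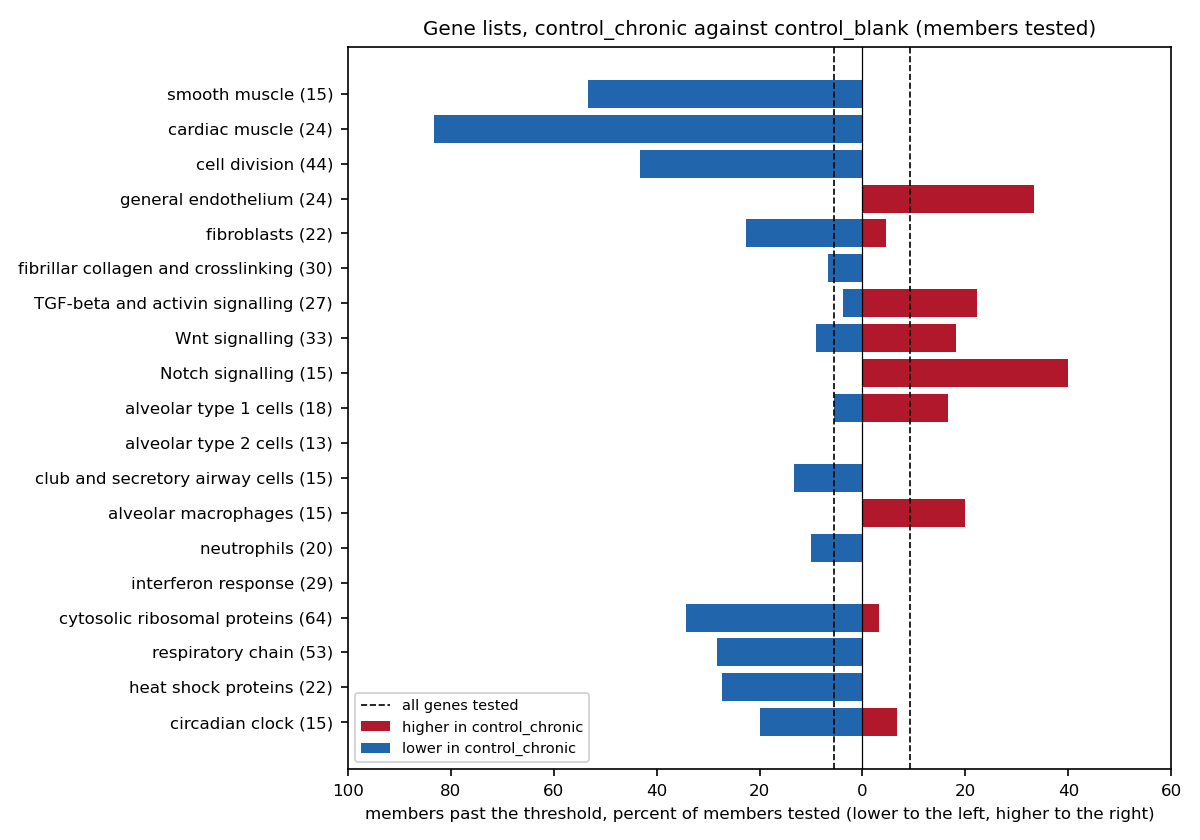
Share of each gene list past the limma threshold, in percent of the members tested (number in brackets), lower in control_chronic to the left and higher to the right; dashed lines mark 5.55% and 9.3% for all genes tested. Cardiac muscle, smooth muscle and cell division lie far to the left with no member to the right, endothelium and Notch signalling lie to the right only, and type 2 cells and interferon response have no bar.

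Contractile genes of smooth muscle were lower in the injured lungs. Of 15 smooth muscle genes tested, 8 fell and 0 rose, with a median change of -0.71 beside 0.00463 over all genes. All 8 were robust, and all 8 had no overlap between the groups. Tpm2, the beta chain of tropomyosin, which lies along the actin filament, read 2342, 2199, 2068, 1585 and 2117 in control_chronic, against 9344, 6817 and 6083 in control_blank. Every control_blank library was far above the highest control_chronic library. Its change was -1.83 ± 0.24 (adjusted p = 0.00016), to a mean of 2062 ± 286 in control_chronic and 7415 ± 1711 in control_blank (SD, n = 5 and 3).

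Desmin (Des) forms the intermediate filaments that tie contractile units together. It lay between 1162 and 1884 in control_chronic and between 4935 and 7001 in control_blank. The groups were far apart, and the change was -1.76 ± 0.19 (adjusted p = 3.8e-05). Actg2, the gamma actin of smooth muscle, read 995, 1073, 828, 671 and 1164 in control_chronic, against 3647, 2545 and 2265 in control_blank. Again the groups were clearly apart, and it changed by -1.57 ± 0.28 (adjusted p = 0.0028). Myl9, the regulatory light chain whose phosphorylation starts contraction, read 2685, 2813, 2285, 2606 and 2474 in control_chronic, against 7564, 6706 and 6342 in control_blank. The spread within each group was small beside the gap between them, with a change of -1.42 ± 0.21 (adjusted p = 0.00074).

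Tagln, an actin-binding protein of smooth muscle, changed by -1.31 ± 0.21 (adjusted p = 0.0017), with 6165 ± 776 in control_chronic and 15522 ± 3789.5 in control_blank (SD, n = 5 and 3). Smooth muscle myosin heavy chain, listed under its protein entry name MYH11_RAT, changed by -1.11 ± 0.21 (adjusted p = 0.0034) and lay between 2219 and 3752 in control_chronic and between 5261 and 8517 in control_blank. Tpm1, the alpha chain of tropomyosin, changed by -0.71 ± 0.15 (adjusted p = 0.0072) and lay between 6743 and 8407 in control_chronic and between 11537 and 12625 in control_blank. Pln, which restrains the calcium pump of smooth and cardiac muscle, was low throughout: it read 31.8, 31.7, 30.6, 26.9 and 18.2 in control_chronic, against 58.4, 111 and 119.8 in control_blank, and changed by -1.71 ± 0.41 (adjusted p = 0.011). The remaining 7 genes of the list did not pass the threshold. Over the list 10 changes were negative and 5 positive, the highest at 0.56. Without control_blank_074, 1 member was called higher. All 5 positive changes were among the 7 that did not pass. The only negative ones there were those of the cytoskeletal proteins smoothelin (Smtn) and filamin A (Flna). They gave changes of -0.12 ± 0.17 (adjusted p = 0.64) and -0.19 ± 0.17 (adjusted p = 0.45). In whole tissue, fewer cells of a type and less RNA per cell cannot be told apart. Des, Tpm1 and Pln are also made by heart muscle, whose genes moved in the same direction, and the part of that in their change was not tested.

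**Figure D2:**
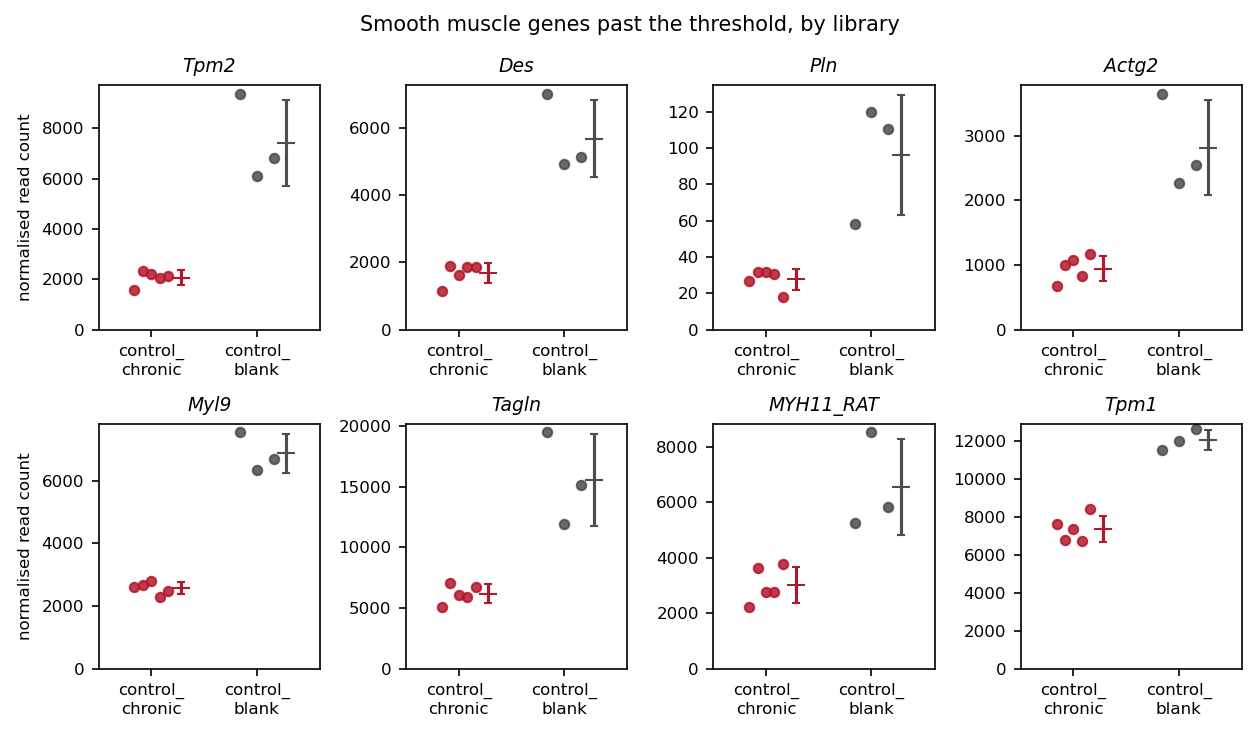
Normalised read count of the 8 smooth muscle genes past the threshold, 1 point per library, with the mean and SD beside the points of control_chronic (n = 5, left) and control_blank (n = 3, right). In each panel all control_chronic points lie below all control_blank points, for Tpm2 at 1585 to 2342 against 6083 to 9344.

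Heart muscle genes had the lowest median change of the lists in the plot of list shares. Of 24 tested, 20 fell and 0 rose, 12 of them robust, and the median was -3.31. Their summed normalised read count lay between 5102 and 6799 in control_chronic and between 17260 and 29120 in control_blank. Myoglobin (Mb), which stores oxygen in muscle, read 9.53, 1.98, 11.5, 1.68 and 14.99 in control_chronic, against 349, 1154 and 1336 in control_blank. All injured libraries were near 0, and the change was -6.86 ± 1.46 (adjusted p = 0.0065). Myl7, the atrial light chain of myosin, read 41.3, 13.9, 36.9, 18.5 and 90.0 in control_chronic, against 1909, 4066 and 4688 in control_blank, a change of -6.63 ± 1.69 (adjusted p = 0.015) that lost the threshold without control_blank_016 (adjusted p = 0.077).

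Cardiac troponin T (Tnnt2), a part of the calcium switch on the thin filament, read 69.9, 116.98, 104, 104 and 87.8 in control_chronic, against 889.8, 1351 and 1742 in control_blank. The levels of troponin C (Tnnc1), which binds the calcium, were 22.2, 7.93, 6.37, 10.1 and 7.50 in control_chronic, against 101, 334 and 346 in control_blank. Neither gene overlapped between the groups, and their changes were -3.73 ± 0.61 (adjusted p = 0.0017) and -4.41 ± 0.58 (adjusted p = 0.00019). Cardiac actin (Actc1) stood at 438 ± 118 in control_chronic and 3203 ± 738 in control_blank (SD, n = 5 and 3) and changed by -2.89 ± 0.60 (adjusted p = 0.0060), and the inhibitory troponin Tnni3 by -2.94 ± 0.69 (adjusted p = 0.010), which missed the threshold without control_blank_016 (adjusted p = 0.075). Muscle creatine kinase (Ckm), which recharges ATP, changed by -5.44 ± 1.07 (adjusted p = 0.0041). Csrp3, a protein of the sarcomere's Z disc, read 0 in control_chronic_114 and control_chronic_116 and changed by -6.66 ± 1.26 (adjusted p = 0.0034). Myh6, the alpha heavy chain of cardiac myosin, and Atp2a2, a calcium pump shared by many tissues, did not pass, at -3.47 ± 1.48 (adjusted p = 0.11) and -0.42 ± 0.18 (adjusted p = 0.10), though edgeR called Myh6 lower (adjusted p = 0.028). How much pulmonary vein or other heart tissue each sample held is not recorded in the labels, and its part in these values was not tested.

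Genes of cell division were also lower. Among 44 tested, 19 fell and 0 rose, with a median change of -0.82, and 41 of the 44 changes were negative. Nusap1, which bundles spindle microtubules, read 31.8, 79.3, 43.3, 37.0 and 41.8 in control_chronic, against 218, 138 and 173 in control_blank. All injured libraries lay below the uninjured ones, control_chronic_114 being the highest of them, and the change was -1.95 ± 0.28 (adjusted p = 0.00056). Tpx2, which nucleates spindle microtubules, read 73.1, 99.1, 113.34, 75.7 and 78.2 in control_chronic, against 279, 219.6 and 264 in control_blank and changed by -1.53 ± 0.32 (adjusted p = 0.0052).

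Cdk1, the kinase that drives entry into mitosis, read 114.39, 155, 159, 79.1 and 87.8 in control_chronic, against 439, 282 and 274 in control_blank. Its groups did not overlap and the change was -1.49 ± 0.32 (adjusted p = 0.0064), although without control_blank_016 it was -1.27 (adjusted p = 0.077). Cenpa, the histone H3 variant of centromeres, read 12.7, 29.7, 24.2, 11.8 and 19.3 in control_chronic, against 63.2, 64.7 and 51.9 in control_blank and changed by -1.64 ± 0.29 (adjusted p = 0.0028). Prc1, which crosslinks the central spindle during cytokinesis, changed by -0.90 ± 0.24 (adjusted p = 0.019), with 359.5 ± 51.1 in control_chronic and 675 ± 134 in control_blank (SD, n = 5 and 3). Foxm1, a transcription factor of mitotic genes, changed by -0.68 ± 0.19 (adjusted p = 0.020), Racgap1, which steers the contractile ring, by -0.99 ± 0.26 (adjusted p = 0.016), and topoisomerase 2A, listed as TOP2A_RAT, by -1.08 ± 0.31 (adjusted p = 0.025). Without control_blank_016 none of Prc1, Foxm1, Racgap1 and TOP2A_RAT passed, with adjusted p from 0.10 (TOP2A_RAT) to 0.19 (Prc1).

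Spindle checkpoint genes in this list included Ttk, at -1.78 ± 0.38 (adjusted p = 0.0066), and Bub1, at -0.99 ± 0.26 (adjusted p = 0.018). Cdc6, which licenses replication origins, changed by -1.80 ± 0.39 (adjusted p = 0.0070), and Melk, a kinase of dividing cells, by -1.76 ± 0.33 (adjusted p = 0.0035). A pair of replication fork genes did not pass: Pcna, the sliding clamp, stood at 1279.8 ± 103 in control_chronic and 1306 ± 90.3 in control_blank (SD, n = 5 and 3), a change of -0.031 ± 0.13 (adjusted p = 0.89), and Mcm7, a subunit of the replicative helicase, stood at 1111 ± 58.5 in control_chronic and 1101 ± 144 in control_blank (SD, n = 5 and 3), a change of 0.02 ± 0.10 (adjusted p = 0.91). The sign of both turns under some alternatives. Robust members were Nusap1, Ttk, Melk and Tpx2. Without control_blank_016, 5 members fell, and without the 2 shallowest injured libraries 13 fell. Bub1 and Cdc6 were among those lost without control_blank_016 (adjusted p = 0.15 and 0.059).

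Many promoters of genes expressed in G2 and mitosis are known to carry CCAAT boxes, bound by NF-Y, and a cell cycle homology region (CHR) with the letters TTTGAA. The windows below show these letters for 4 of the genes that fell. They are the 250 bases before the start of the gene in RefSeq's annotation of the GRCr8 assembly, 5′ to 3′ on the gene's strand, with capitals for CCAAT and TTTGAA on either strand (ATTGG and TTCAAA on the opposite one). The window of Cdk1 is chr20:19265043-19265292 on the plus strand, that of Prc1 chr1:143659231-143659480 on the plus strand, that of Cenpa chr6:31431553-31431802 on the minus strand and that of Nusap1 chr3:127057045-127057294 on the plus strand.
Cdk1: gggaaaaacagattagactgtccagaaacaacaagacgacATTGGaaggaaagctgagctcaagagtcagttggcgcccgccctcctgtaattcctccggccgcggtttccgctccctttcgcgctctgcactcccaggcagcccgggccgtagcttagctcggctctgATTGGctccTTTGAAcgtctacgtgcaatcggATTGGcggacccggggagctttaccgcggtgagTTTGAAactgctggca
Prc1: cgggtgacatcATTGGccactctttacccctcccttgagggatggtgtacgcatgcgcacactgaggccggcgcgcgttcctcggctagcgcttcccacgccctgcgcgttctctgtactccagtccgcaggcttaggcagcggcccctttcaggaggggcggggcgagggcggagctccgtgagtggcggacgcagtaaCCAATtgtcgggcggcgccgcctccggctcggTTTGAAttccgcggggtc
Cenpa: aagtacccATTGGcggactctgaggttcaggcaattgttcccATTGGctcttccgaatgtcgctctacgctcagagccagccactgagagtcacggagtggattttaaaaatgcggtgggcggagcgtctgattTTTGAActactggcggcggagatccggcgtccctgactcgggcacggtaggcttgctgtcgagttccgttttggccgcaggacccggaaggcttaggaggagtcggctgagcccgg
Nusap1: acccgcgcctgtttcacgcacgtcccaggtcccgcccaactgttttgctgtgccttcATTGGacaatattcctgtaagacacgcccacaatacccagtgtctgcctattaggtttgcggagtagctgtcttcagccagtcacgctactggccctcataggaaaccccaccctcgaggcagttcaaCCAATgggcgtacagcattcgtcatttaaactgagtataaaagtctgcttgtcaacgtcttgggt
In Cdk1 the CCAAT letters began 210, 81 and 49 bases before the start and TTTGAA 72 and 16 bases before it. In Prc1 they began at 239 and 50 bases, with TTTGAA at 18 bases. Cenpa had CCAAT at 242 and 208 bases and TTTGAA between them and the start, and Nusap1 had CCAAT at 193 and 65 bases and no TTTGAA in this window.

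Of the 44 cell division genes, 33 matched a promoter in that table. Within their windows of 250 bases before the start, CCAAT occurred in 22 (66.7%) and TTTGAA in 11 (33.3%). Over all 33469 promoters in the table the shares were 34% and 16.2%. The 12 matched genes that fell held CCAAT in 9 windows (75%) and TTTGAA in 5 (41.7%). Among the 21 that did not pass the threshold, CCAAT was in 13 (61.9%) and TTTGAA in 6 (28.6%). These counts describe letters in a window, not binding.

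Endothelial genes moved the other way. Of 24 general endothelial genes tested, 8 rose and 0 fell, with a median change of 0.37. Erg, a transcription factor that maintains endothelial identity, read 1366, 1269, 1139.8, 1289 and 1387 in control_chronic, against 283, 612 and 739.7 in control_blank. All injured libraries exceeded all uninjured ones, and the change of 1.35 ± 0.24 (adjusted p = 0.0027) was robust. VE-cadherin (Cdh5), the adhesion protein of endothelial junctions, read 6692, 7502, 6699, 7352 and 10448 in control_chronic, against 545, 2690.1 and 4882 in control_blank. In control_blank its level spanned nearly an order of magnitude, lowest in library 016, and without that library the change of 1.98 ± 0.48 (adjusted p = 0.012) became 1.07 (adjusted p = 0.20).

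Clec14a, a membrane lectin of endothelium, read 2637, 2823, 3106, 2803 and 3985 in control_chronic, against 494, 1404 and 1798 in control_blank and changed by 1.49 ± 0.31 (adjusted p = 0.0057). Calcrl, the receptor subunit that binds adrenomedullin, changed by 1.53 ± 0.37 (adjusted p = 0.012), and the angiopoietin receptor Tek by 0.83 ± 0.23 (adjusted p = 0.022). A further 3 passed: the VEGF receptor Flt1 at 1.37 ± 0.45 (adjusted p = 0.043), the transcription factor Fli1 at 1.03 ± 0.24 (adjusted p = 0.011) and the receptor Tie1 at 0.51 ± 0.16 (adjusted p = 0.033). In all of these, library 016 was the lowest. Without it, Erg alone among the 24 stayed past the threshold.

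Not all endothelial markers passed. Pecam1 stood at 6200.2 ± 1195 in control_chronic and 8754 ± 2159 in control_blank (SD, n = 5 and 3), a change of -0.49 ± 0.23 (adjusted p = 0.14), and von Willebrand factor (Vwf) at 17706 ± 3162 in control_chronic and 16365 ± 2018 in control_blank (SD, n = 5 and 3), a change of 0.10 ± 0.18 (adjusted p = 0.72). The summed count of the whole list lay between 130200 and 155900 in control_chronic and at 84750, 139900 and 116600 in control_blank libraries 016, 021 and 074. Outside that list, coagulation factor VIII (F8), which endothelial cells make, lay between 2059 and 2605 in control_chronic and between 788 and 1504 in control_blank and changed by 0.92 ± 0.17 (adjusted p = 0.0029). Cyyr1, a cysteine- and tyrosine-rich protein, read 763, 742, 680.1, 633 and 906 in control_chronic, against 40.5, 167 and 369.9 in control_blank. It too was lowest in library 016, and it changed by 2.43 ± 0.43 (adjusted p = 0.0027). The changes of F8 and Cyyr1 were robust. Thrombomodulin (Thbd), which turns thrombin to an anticoagulant enzyme, changed by 1.40 ± 0.33 (adjusted p = 0.0099), and the arterial ligand Efnb2 by 1.76 ± 0.36 (adjusted p = 0.0048). Both lost the threshold without control_blank_016, at adjusted p = 0.17 and 0.053.

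**Figure D3:**
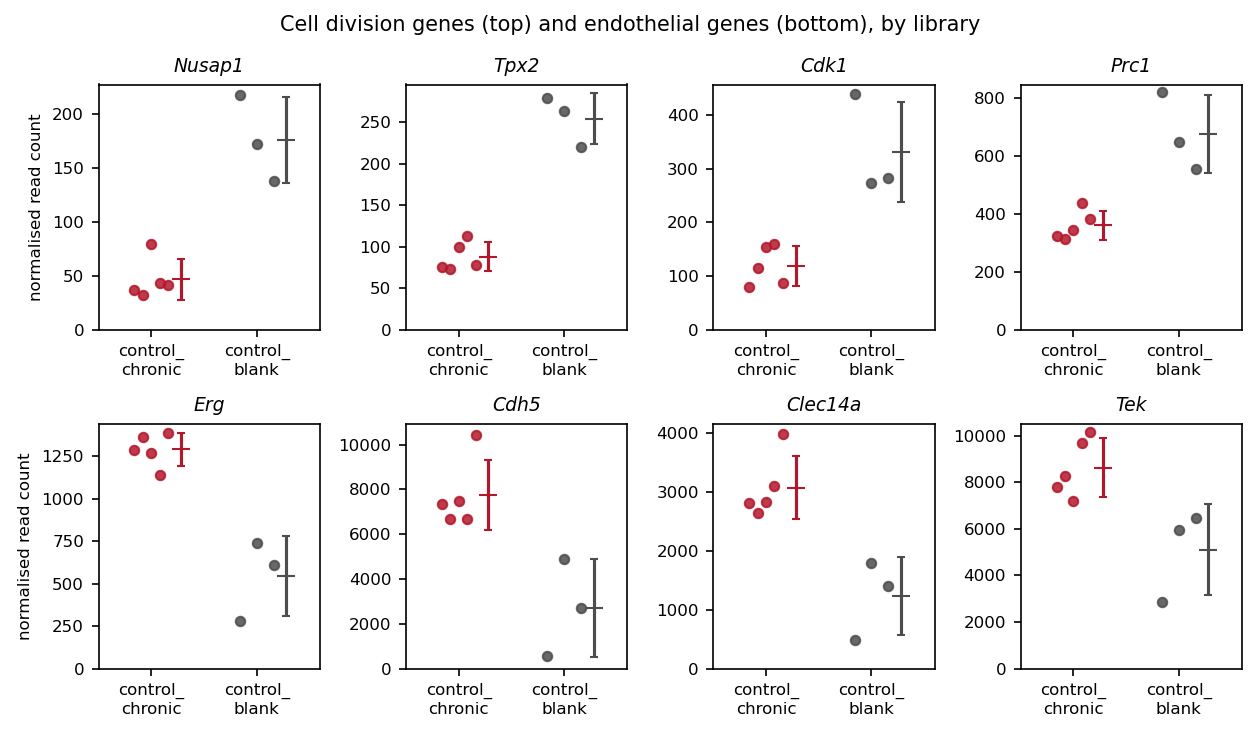
Normalised read count of 4 cell division genes (top row) and 4 endothelial genes (bottom row), 1 point per library, with mean and SD for control_chronic (n = 5, left) and control_blank (n = 3, right). Control_chronic points lie below control_blank in the top row and above it in the bottom row, where the lowest control_blank point is library 016 in each panel.

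Fibrillar collagens, the bulk of scar tissue, gave no higher call 14 days after induction. Of 30 genes for collagens and the enzymes that process and crosslink them, limma called 0 higher and 2 lower, as did edgeR, and 1 was higher and 4 lower at an unadjusted p under 0.05. The median change was -0.10. Collagen I alpha 1 (Col1a1) read 7334, 12272, 5633, 5709.7 and 10800 in control_chronic, against 10914, 6157 and 11100 in control_blank. The groups overlapped widely and the change was -0.19 ± 0.43 (adjusted p = 0.79). Its partner Col1a2 and collagen III (Col3a1) changed by -0.49 ± 0.37 (adjusted p = 0.38) and -0.45 ± 0.34 (adjusted p = 0.38). The 2 that fell were Cthrc1, a secreted protein of collagen-producing fibroblasts, at -0.89 ± 0.30 (adjusted p = 0.048), and the minor fibrillar collagen Col5a3, at -0.83 ± 0.24 (adjusted p = 0.024). Without control_blank_016 neither passed. Other matrix genes of wound healing did not pass either. Fibronectin (Fn1) changed by 0.25 ± 0.40 (adjusted p = 0.70), periostin (Postn) by 0.56 ± 0.32 (adjusted p = 0.23) and the protease inhibitor Timp1 by -0.47 ± 0.48 (adjusted p = 0.54).

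Fibroblast genes outside the collagens were mixed, with 1 of 22 higher and 5 lower. Without control_blank_016, 0 were higher and 1 was lower. The small proteoglycans decorin (Dcn) and lumican (Lum), which regulate collagen fibril thickness, changed by -1.43 ± 0.42 (adjusted p = 0.027) and -0.97 ± 0.29 (adjusted p = 0.030), and without that library neither passed (adjusted p = 0.11 and 0.12). Mfap5, a microfibril protein, read 315, 512, 293, 367 and 348 in control_chronic, against 763, 899 and 708 in control_blank. Its groups were far apart and its change of -1.13 ± 0.23 (adjusted p = 0.0046) was robust. From the Wnt list, Sfrp2, a secreted Wnt modulator of fibroblasts, read 191, 274, 192, 259 and 297 in control_chronic, against 1404, 716 and 896 in control_blank. That change, -2.01 ± 0.35 (adjusted p = 0.0026), was also robust. Its relative Sfrp1 lay between 15.9 and 31.1 in control_chronic and between 54.2 and 64.0 in control_blank and changed by -1.45 ± 0.42 (adjusted p = 0.026), with adjusted p = 0.16 when control_blank_016 was left out. The intermediate filament vimentin (Vim), present in mesenchymal, endothelial and immune cells, was the fibroblast list member that rose, by 0.65 ± 0.21 (adjusted p = 0.037), a call lost without control_blank_016 (adjusted p = 0.31) and in edgeR (adjusted p = 0.075).

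Higher calls outnumbered lower ones in the TGF-beta, Wnt and Notch lists but not in the BMP list, where 2 of 24 rose and 3 fell. All of the higher calls in these 4 lists were lost without control_blank_016, and of the lower ones 1 each in the Wnt and BMP lists stayed. In the TGF-beta and activin list of 27, 6 rose and 1 fell. The ligand Tgfb1 changed by 0.54 ± 0.16 (adjusted p = 0.032), its co-receptor Tgfbr3 by 1.33 ± 0.34 (adjusted p = 0.014) and the activin antagonist Fst by 1.21 ± 0.31 (adjusted p = 0.016), while the ligand Tgfb3 fell, by 0.82 ± 0.23 (adjusted p = 0.022). In the Wnt list of 33, 6 rose and 3 fell, among them the receptor Fzd4 at 1.89 ± 0.41 (adjusted p = 0.0076) and Axin2, a feedback target of the pathway, at 1.04 ± 0.28 (adjusted p = 0.018). Of 15 Notch genes, 6 rose and 0 fell. Notch1 itself lay between 4311 and 5138 in control_chronic and between 2780.5 and 3566 in control_blank and changed by 0.57 ± 0.13 (adjusted p = 0.0086).

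Calls were uneven across the epithelial lists. Higher calls for type 1 cells and lower calls for secretory airway cells exceeded the shares over all genes (9.3% and 5.55%). For type 2 cells, 0 of 13 passed in either direction by limma or by edgeR, 1 was lower at an unadjusted p under 0.05, and the median change was -0.17. Of 18 type 1 cell genes 3 rose (Clic5, Rtkn2 and Akap5) and 1 fell (Igfbp2), while edgeR called 0 higher and 1 lower. Without control_blank_016 all 4 of these calls were lost, with adjusted p from 0.29 (Igfbp2) to 0.46 (Rtkn2). Of 14 genes of transitional or injured epithelium 0 passed by limma or edgeR and 1 at an unadjusted p under 0.05. In club and other secretory cells of the airway 0 of 15 rose and 2 fell. Scgb3a2, a secretoglobin of those cells, read 9478, 8593, 10529, 8349 and 8179.8 in control_chronic, against 32870, 12742 and 14033 in control_blank. Library 016 was far above the other uninjured ones, and the change of -1.01 ± 0.28 (adjusted p = 0.022) became -0.57 (adjusted p = 0.31) without it. Aldh1a1, which makes retinoic acid, changed by -0.77 ± 0.26 (adjusted p = 0.047), with -0.53 (adjusted p = 0.38) when that library was left out.

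In the lists of interferon, NF-kB, cytokine and neutrophil genes no member rose. Of 29 interferon response genes 0 passed by limma, by edgeR or at an unadjusted p under 0.05. Of 15 genes for NF-kB subunits and their feedback 0 passed by limma or edgeR and 1 at an unadjusted p under 0.05, and of 35 cytokines and chemokines both tools called 0 higher and 1 lower. That gene was Ccl11, which attracts eosinophils. It read 127, 75.3, 149, 159.8 and 142 in control_chronic, against 696, 555 and 639 in control_blank, with all injured libraries below all uninjured ones, and changed by -2.30 ± 0.68 (adjusted p = 0.029). Of 20 neutrophil genes 0 rose and 2 fell, both subunits of calprotectin. S100a8 read 159, 337, 126, 501 and 92.1 in control_chronic, against 592, 628 and 657 in control_blank, a wide spread in the injured lungs, and changed by -1.65 ± 0.50 (adjusted p = 0.031). S100a9 changed by -1.49 ± 0.46 (adjusted p = 0.032). Without control_blank_016 none of these 3 calls stayed, with adjusted p = 0.17 for Ccl11, 0.16 for S100a8 and 0.18 for S100a9, and edgeR did not call S100a8 (adjusted p = 0.053). The inflammatory cytokine Tnf read 89.0, 113.01, 59.9, 124 and 63.2 in control_chronic, against 34.9, 47.02 and 36.8 in control_blank. Its groups did not overlap, but the change of 1.12 ± 0.45 (adjusted p = 0.092) missed the threshold.

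Genes of alveolar macrophages included 3 of 15 that rose and 0 that fell. At an unadjusted p under 0.05, 5 were higher and 2 lower, and 11 changes were positive and 4 negative. A limma fit of only the 2 groups called 4 higher and 1 lower. The 3 that rose were the lysosomal marker Cd68 at 0.71 ± 0.22 (adjusted p = 0.031), the lipid-sensing transcription factor Pparg at 0.86 ± 0.23 (adjusted p = 0.020) and Axl, a receptor for dying cells, at 1.11 ± 0.24 (adjusted p = 0.0065). Axl read 2946, 3009.6, 2863, 2190.3 and 2439.6 in control_chronic, against 771, 1506 and 1613 in control_blank. The lowest value was again in library 016, and without it none of the 3 passed, with adjusted p from 0.11 (Axl) to 0.28 (Cd68). Of 30 T and NK cell genes 2 rose and 0 fell, and of 22 B and plasma cell genes 1 rose and 1 fell, shares near the background. Gpnmb, a glycoprotein of lipid-laden macrophages, lay between 3545 and 6279 in control_chronic and between 2166.2 and 2640.3 in control_blank, with no overlap, and its change of 0.85 ± 0.29 (adjusted p = 0.051) just missed the threshold.

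Many genes of cytosolic ribosomes and of the nuclear-encoded respiratory chain were lower by small amounts. In control_blank_074, however, the summed count of either list lay within the range of control_chronic. For ribosomal proteins it was 372600, beside 283000 to 376500, and for the respiratory chain 113600, beside 104700 to 121600. Both other control_blank libraries lay above these ranges. Among 64 cytosolic ribosomal proteins 22 fell and 2 rose, with a median change of -0.39, and 59 of the 64 changes were negative. Rps27, of the small subunit, read 11477, 10928, 11066, 13061 and 9253 in control_chronic, against 25316, 23387 and 20043 in control_blank. Its change of -1.04 ± 0.20 (adjusted p = 0.0039) was robust, as was that of Rps4x at -0.65 ± 0.12 (adjusted p = 0.0034), and these were the 2 members that fell without control_blank_016. Of 53 genes of the respiratory chain 15 fell and 0 rose, with a median of -0.21, and only Ndufv2, a subunit of complex I, was robust, at -0.53 ± 0.11 (adjusted p = 0.0046). Without control_blank_016, 1 of the 53 fell, and without the 2 shallowest injured libraries 6 fell. The 13 genes encoded in mitochondrial DNA did not share that direction: 1 rose, 0 fell, 8 changes were positive and the median was 0.13. The one that rose was the complex I subunit listed as NU5M_RAT, at 1.24 ± 0.42 (adjusted p = 0.048), which missed the threshold without control_blank_016 (adjusted p = 0.37), and edgeR called 0 of the 13. Ribosomal protein genes have many near-identical copies, and how reads that fit several genes were counted is not given in the sources used here.

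Of 22 heat shock and chaperone genes 6 fell and 0 rose. The edgeR test called 10 lower, a fit of only the 2 groups called 2, and 1 fell without the 2 shallowest injured libraries. Without control_blank_016 limma called 0 of them, and none was robust. Hspa1a, the inducible Hsp70, read 1395, 761, 1007, 887 and 1738 in control_chronic, against 14350, 1302 and 10773 in control_blank. Its groups overlapped, since control_blank_021 was as low as the injured libraries, and the change of -2.41 ± 0.78 (adjusted p = 0.040) missed the threshold without control_blank_016 (adjusted p = 0.33). A near-identical copy of this gene shares its sequence. Scd1, which puts the double bond into stearate, read 4283, 3184, 2371, 1506 and 2701 in control_chronic, against 10745, 22660 and 11732 in control_blank. Its change of -2.42 ± 0.53 (adjusted p = 0.0077) was robust, as was that of the insulin-responsive glucose transporter Slc2a4, at -1.55 ± 0.29 (adjusted p = 0.0032) with 58.5 ± 12.2 in control_chronic and 172 ± 28.1 in control_blank (SD, n = 5 and 3).

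Some genes of the circadian clock differed. Nr1d1, a repressor that peaks in the daily light phase in rodents and represses Arntl, read 1064, 1291, 1421, 742 and 719.7 in control_chronic, against 502, 257 and 105 in control_blank. All injured libraries lay above the uninjured ones, and the change of 2.07 ± 0.39 (adjusted p = 0.0034) was robust. The period gene Per2 changed by -1.06 ± 0.29 (adjusted p = 0.020) and the cryptochrome Cry1 by -0.98 ± 0.23 (adjusted p = 0.0099), so 1 of 15 clock genes rose and 3 fell. Changes over the list ran from -1.89 to 2.07, and none of the 3 falls was robust. Per2 missed the threshold without control_blank_016 (adjusted p = 0.14), where 1 clock gene was called lower. A limma fit of only the 2 groups also called 1 lower. The hour at which tissue was taken is not given in the sources used here, and its part was not tested.

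Other genes were robust with no place in the lists above. Vgll4, which competes with YAP for TEAD factors, read 788, 708, 678, 590.5 and 726 in control_chronic, against 262, 332 and 409.8 in control_blank. The groups were well separated, with a change of 1.08 ± 0.15 (adjusted p = 0.00039). Pltp, the phospholipid transfer protein, changed by 1.28 ± 0.21 (adjusted p = 0.0018), Wbp2, a YAP cofactor, by 0.72 ± 0.11 (adjusted p = 0.0014), and Ostm1, a lysosomal chloride transporter subunit, by 1.02 ± 0.17 (adjusted p = 0.0019). In the downward direction, Sh3bgr, a gene of striated muscle, read 57.2, 35.7, 61.1, 47.1 and 80.3 in control_chronic, against 361, 268 and 264 in control_blank, a change of -2.42 ± 0.29 (adjusted p = 0.00010). Spink8, of a family of protease inhibitors, lay between 43.7 and 69.4 in control_chronic and between 242 and 282 in control_blank and changed by -2.26 ± 0.28 (adjusted p = 0.00012). Cytoglobin (Cygb), a haem protein of fibroblasts and pericytes, changed by -1.11 ± 0.17 (adjusted p = 0.00090), and Ostc, of the complex that attaches sugars to new proteins, by -0.80 ± 0.13 (adjusted p = 0.0014).

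Among the highest changes were those of non-coding RNA genes, which lack the poly(A) tail that the library preparation selects. RNase_MRP, the RNA of the enzyme that cuts ribosomal precursors, read 4108, 2379, 164, 683 and 434 in control_chronic, against 30.8, 22.1 and 7.99 in control_blank. It was higher in every injured library, but the injured libraries themselves ranged over more than an order of magnitude. Its change was 5.52 ± 0.89 (adjusted p = 0.0017). RNaseP_nuc, the RNA of the enzyme that trims transfer RNA precursors, read 3613, 2994, 481, 935 and 662 in control_chronic, against 186, 99.0 and 44.7 in control_blank and changed by 3.74 ± 0.71 (adjusted p = 0.0035).

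The RNA called 7SK holds the elongation factor P-TEFb inactive. Of the 4 genes with this label that were tested, 1 passed (ENSRNOG00000034593). It read 6345, 3569, 535, 1708 and 860.0 in control_chronic, against 166, 105 and 55.1 in control_blank. Libraries control_chronic_113 and control_chronic_114 were the highest again, and it changed by 4.16 ± 0.76 (adjusted p = 0.0029). The RNAs snoU97 and snoU85, labelled as small nucleolar RNAs, changed by 3.81 ± 0.78 (adjusted p = 0.0052) and 3.26 ± 0.69 (adjusted p = 0.0065). All of these were robust. Of all 66 small nucleolar RNAs tested, 7 were higher and 7 lower, but 48 changes were negative and the median was -0.49. Levels did not overlap between the groups for 7 higher and 14 lower ones, beside 8.64% and 10.3% of all genes. For the higher direction, this share and that of the calls (9.3% over all genes) were near the background. Both of the tested genes labelled as ribosomal RNA were higher, and both missed the threshold without the 2 shallowest injured libraries.

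For each of the 5 RNAs, control_chronic_113 and control_chronic_114 held the highest levels, and these were also the 2 shallowest, with 6024093 and 8935729 reads. The other 3 injured libraries had 11177089 to 17162741 reads and the uninjured ones at least 22277745. Genes without a name took 1.37% to 11.7% of reads in control_chronic, highest in the same pair, and 0.416% to 0.865% in control_blank. The part of depth or of the selection for poly(A) in these changes was not tested. Without that pair, the count of genes past the threshold over all genes was 395 higher (2.65%) and 306 lower (2.05%), and all 5 RNAs stayed past it.

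**Figure D4:**
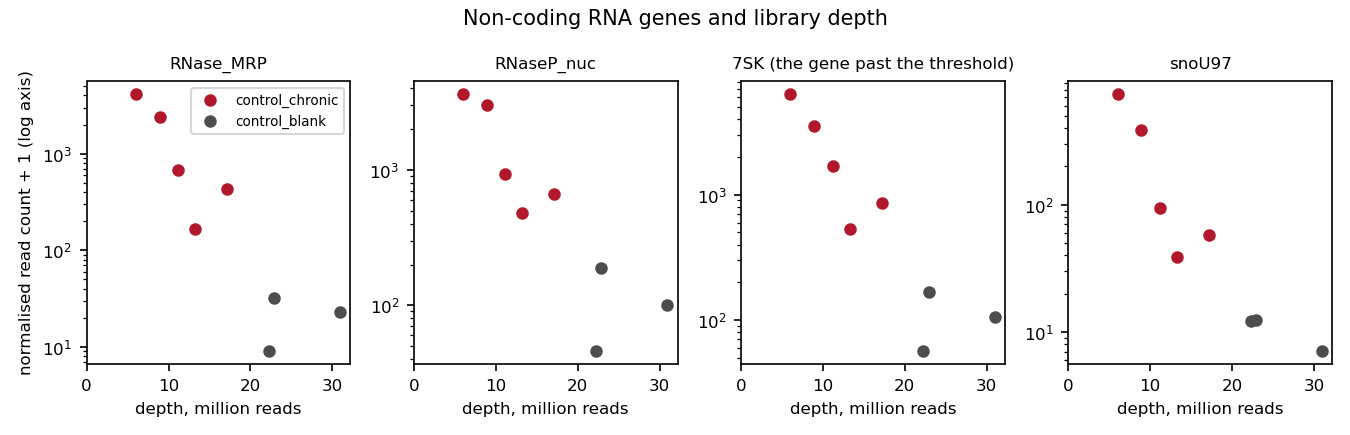
Normalised read count plus 1 of 4 non-coding RNA genes on a log axis against library depth on the x axis, from 6024093 to 30960809 reads, 1 point per library, control_chronic (n = 5) and control_blank (n = 3). The 2 shallowest control_chronic libraries lie highest in each panel, and the 3 control_blank libraries, all deeper, lie lowest.

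Injury labelled chronic was also compared under ventilation, in libraries that are not shared with the comparison above. A day after induction is listed here only for control_chronic. In chronic_VCV against healthy_VCV, 367 genes passed (2.46%), 245 of them higher (1.64%) and 122 lower (0.818%). In chronic_noisy against healthy_noisy, 699 passed (4.69%), 338 higher (2.27%) and 361 lower (2.42%). Of the 1386 genes higher without ventilation, 16 were also higher under constant volume (1.15% of the 1386 and 6.53% of the 245), and 74 under variable volume (5.34% of the 1386 and 21.9% of the 338). Of the 828 lower genes, 23 were also lower under constant volume (2.78% of the 828 and 18.9% of the 122), and 21 under variable volume (2.54% of the 828 and 5.82% of the 361). Calls in the opposite direction were also made: of the 1386 higher genes, 15 were lower under constant and 47 under variable volume, and of the 828 lower genes, 16 were higher under constant and 5 under variable volume. Whether called or not, 20.6% of the 1386 had a positive change under constant volume, beside 48.4% of all genes, and 79% under variable volume, beside 49.5%. Of the 828, 36% had a negative change under constant volume, beside 51.6% of all genes, and 66.2% under variable volume, beside 50.5%. In all 3 comparisons together limma called 0 genes higher and 0 lower. Title numbers of chronic_VCV and healthy_noisy begin with 15, those of chronic_noisy with 14 and those of healthy_VCV with 14 or 15. With the number series as a covariate, 1 gene passed under constant volume and 0 under variable volume, with 1876 and 1273 at an unadjusted p under 0.05. No series holds both chronic_noisy and healthy_noisy libraries, so series and injury cannot be told apart within that comparison. The covariate rests on groups that hold both series, such as healthy_VCV.

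Differences between the injury changes were tested directly, as the change without ventilation minus the change with it. For constant volume the difference passed for 3564 genes (23.9%), 2085 upward (14%) and 1479 downward (9.92%). For variable volume it passed for 396 genes (2.66%), 252 upward (1.69%) and 144 downward (0.966%). Both of these tests use the same unventilated libraries. Injured and uninjured groups differ in title numbers without ventilation and at variable volume, and in part at constant volume. In these tests that difference and ventilation cannot be told apart.

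The change of smooth muscle genes differed from that under ventilation. Of the 8 that fell, 7 differed from the constant-volume change and 7 from the variable-volume change. Des gave -1.76 ± 0.19 without ventilation, 0.044 ± 0.20 at constant volume and -0.057 ± 0.21 at variable volume. Its difference was -1.81 (adjusted p = 0.0021) against constant volume and -1.70 (adjusted p = 0.0023) against variable volume. Tpm2 gave -1.83 ± 0.24 without ventilation, 0.37 ± 0.25 at constant volume and -0.27 ± 0.26 at variable volume, with differences of -2.20 (adjusted p = 0.0021) and -1.56 (adjusted p = 0.015). For Tagln the difference from the variable-volume change did not pass, at -1.06 (adjusted p = 0.079).

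Levels in the ventilated groups are given for genes chosen after their values were seen. Des averaged 2104 ± 775 in chronic_VCV, 1949.9 ± 121 in healthy_VCV, 1629 ± 63.5 in chronic_noisy and 1697 ± 107 in healthy_noisy (SD), beside 1681 ± 307 (SD) in control_chronic and 5686 ± 1143 (SD) in control_blank. Tpm2 averaged 2280.1 ± 886 in chronic_VCV, 1679 ± 227 in healthy_VCV, 1742 ± 338 in chronic_noisy and 2099 ± 346 in healthy_noisy (SD), beside 2062 ± 286 (SD) in control_chronic and 7415 ± 1711 (SD) in control_blank. The same order held for Vgll4 in the opposite direction, with 664 ± 150.1 in chronic_VCV, 823 ± 99.5 in healthy_VCV, 655 ± 42.4 in chronic_noisy and 559 ± 16.036 in healthy_noisy (SD), beside 698 ± 72.4 (SD) in control_chronic and 334 ± 74.1 (SD) in control_blank. For these 3 genes the control_chronic mean lay within the range of the ventilated means and the control_blank mean outside it. For MYH11_RAT it was the other way round: averages were 6578 ± 2169.9 in chronic_VCV, 7107 ± 1322 in healthy_VCV, 6864 ± 977 in chronic_noisy and 5308 ± 861 in healthy_noisy (SD), beside 3022 ± 645 (SD) in control_chronic and 6538 ± 1737 (SD) in control_blank.

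Heart muscle genes were lower in the injured group at constant volume too, but not at variable volume. Under constant volume 13 of 24 were lower with injury and 0 higher, with a median of -2.85, and under variable volume 1 was higher and 0 lower, with a median of 2.65. Tnnt2 gave -3.73 ± 0.61 without ventilation, -2.70 ± 0.64 at constant volume and 1.74 ± 0.68 at variable volume. Its difference was -1.04 (adjusted p = 0.40) from the constant-volume change and -5.47 (adjusted p = 0.0023) from the variable-volume change. Over the list, 0 genes differed upward and 1 downward from the constant-volume change, and 0 upward and 20 downward from the variable-volume change. Averages of Tnnt2 were 69.5 ± 15.5 in chronic_VCV and 528 ± 271 in healthy_VCV (SD). At variable volume they were 393 ± 216 in chronic_noisy and 115.54 ± 54.7 in healthy_noisy (SD). The injured mean was thus the lower one at constant volume and the higher one at variable volume. Title numbers begin with 15 in chronic_VCV and healthy_noisy, with 14 in chronic_noisy and with 14 or 15 in healthy_VCV. Series and injury cannot be told apart at variable volume, and they coincide in part at constant volume. With the series as a covariate, 1 gene of all those tested passed at constant volume and 0 at variable volume.

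Cell division genes had a median of -0.69 under constant volume, with 4 of 44 lower, and of -0.00338 under variable volume, with 2 lower. Nusap1 gave -1.95 ± 0.28 without ventilation, -1.27 ± 0.29 at constant volume and -0.025 ± 0.31 at variable volume, and it differed from the variable-volume change by -1.92 (adjusted p = 0.012). Endothelial genes had medians of -0.13 under constant and 0.13 under variable volume, with 1 of 24 higher in each. Cdh5 gave 1.98 ± 0.48 without ventilation, -0.84 ± 0.50 at constant volume and 1.15 ± 0.54 at variable volume. It differed from the constant-volume change by 2.83 (adjusted p = 0.0091) and from the variable-volume change by 0.84 (adjusted p = 0.66).

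Nr1d1 and RNase_MRP changed without ventilation and differed from both ventilated changes. Nr1d1 gave 2.07 ± 0.39 without ventilation, 0.23 ± 0.41 at constant volume and -0.44 ± 0.43 at variable volume, with differences of 1.85 (adjusted p = 0.022) and 2.51 (adjusted p = 0.017). RNase_MRP gave 5.52 ± 0.89 without ventilation, 0.093 ± 0.93 at constant volume and -0.015 ± 1.00 at variable volume, with differences of 5.43 (adjusted p = 0.0077) and 5.54 (adjusted p = 0.023). Its averages were 131 ± 92.9 in chronic_VCV, 174 ± 209 in healthy_VCV, 54.0 ± 37.0 in chronic_noisy and 56.1 ± 53.4 in healthy_noisy (SD), all below the control_chronic mean of 1554 ± 1669.7 (SD) and above the control_blank mean of 20.3 ± 11.5 (SD).

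**Figure D5:**
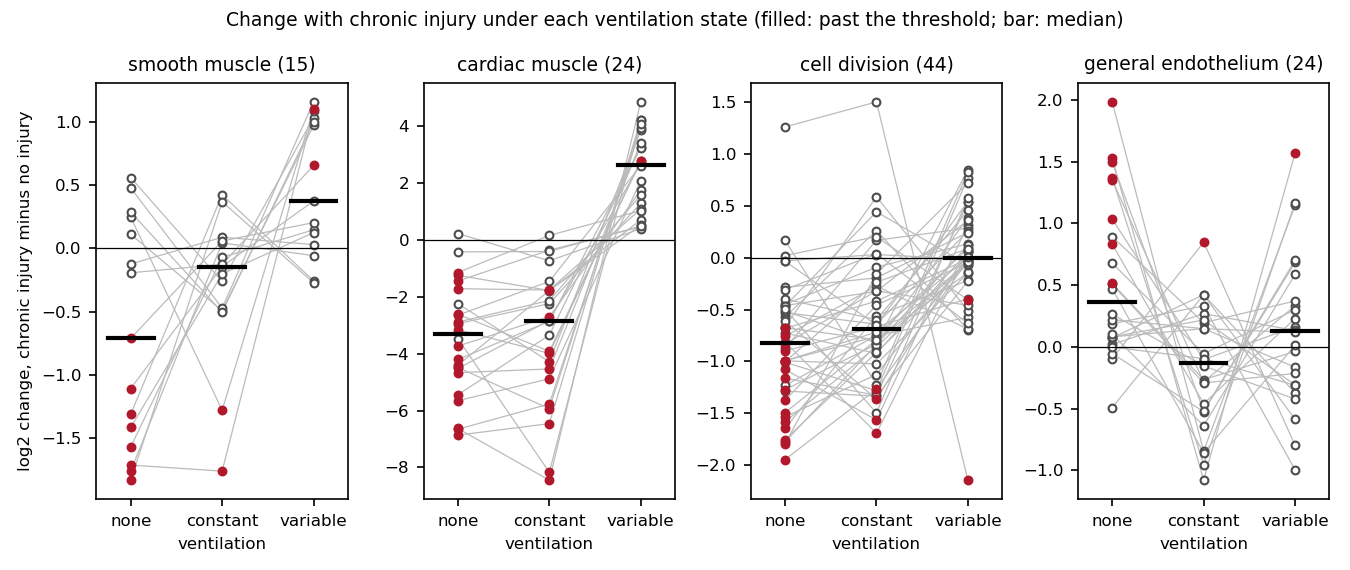
Log2 change with chronic injury (injured minus uninjured) for the members of 4 lists, with no ventilation, constant and variable tidal volume; each line is 1 gene, filled points are past the threshold and bars mark medians. Smooth muscle medians run -0.71, -0.14 and 0.37, cardiac muscle medians -3.31, -2.85 and 2.65, cell division medians -0.82, -0.69 and -0.00338, and endothelial medians 0.37, -0.13 and 0.13.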

How the data were processed

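Lung RNA of 28 libraries was measured, of which the 8 of control_chronic and control_blank are described and 13 of the ventilated groups are compared. The deposited values are a signal per gene and library, read counts that the authors divided by 1 size factor per library. Dividing by the value of 1 read gave whole reads for 100.0000% of values within 0.1 read. Per the labels' protocols, RNA with a poly(A) tail was captured on oligo(dT) beads, and the dUTP method kept the strand. The submitters' processing notes name CASAVA 1.8.0, BWA, bedtools 2.11, DESeq 1.8.3 and build rn4, and the file header names Ensembl 67. How strand and ambiguous reads were counted is not given in the sources used here. Replicates differed by more than sampling noise (smallest chi-square per gene 16.3).

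Of 17002 genes, 14908 whose mean over all 28 libraries reached 10 were tested by limma 3.58.1 in R 4.3.3 on log2(value + 1), with a mean for each of 8 groups, an intensity trend and a robust prior. Tests were two-sided, and p-values were adjusted by the Benjamini-Hochberg method within each of 5 comparisons: chronic injury in each of 3 ventilation states and 2 differences between them. The edgeR 4.0.16 quasi-likelihood test was run on the recovered reads. Other alternatives were a pseudocount of 10, no filter, quantile normalization, fits of only the groups compared, thinned reads, the number series as a covariate for the ventilated comparisons, no control_chronic libraries of the 2 lowest depths, and each library left out. The procedure was tested on simulated reads.

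Names came from the deposited table. In it 489 genes lack a name, 2786 carry a protein entry name, and 0 identifiers matched the RefSeq table, which served for synonyms and promoters (GRCr8). Named genes are up to 4 members per direction from each of 73 gene lists, the highest and lowest changes with no overlap between groups, robust genes with the smallest p, and a fixed set of marker genes. The members and lists were chosen with earlier results of these data known. Plots used matplotlib 3.10.9 in Python 3.11.15.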

Additional observations from a re-analysis of the deposited data

Results flagged for a closer look

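In single genes of the 5 control_chronic libraries, 1 library stood apart from the others by the gap test of Dixon, which flags about 1 in 20 groups by chance. Of 100 genes examined, 8 met it. Library control_chronic_113 was apart for Tnnc1 (22.2), Ttk (9.53) and Slc2a4 (79.4), control_chronic_114 for Nusap1 (79.3), Fn1 (14265) and Gpnmb (6279), and control_chronic_117 for Cdh5 (10448) and Thbd (8342). The first 2 of these libraries were the shallowest of the group and the third the deepest. The part of depth in these values was not tested.

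The change with chronic injury differed between unventilated and ventilated lungs for 3564 genes at constant volume and 396 genes at variable volume by limma. In the following the difference is the log2 change without ventilation minus that with ventilation. Among smooth muscle genes, Tpm2 differed by -2.20 at constant and -1.56 at variable volume, Des by -1.81 and -1.70, Actg2 by -1.50 and -1.72, Myl9 by -1.21 and -1.54, and MYH11_RAT by -0.96 and -1.48. Tagln differed by -1.74 at constant volume. In heart muscle, Tnnc1 differed by -2.63 at constant and -5.11 at variable volume, and at variable volume Mb differed by -11.1, Tnnt2 by -5.47 and Actc1 by -4.46. Sh3bgr differed by -2.12 at constant and -2.88 at variable volume.

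Endothelial genes differed at constant volume, Cdh5 by 2.83, Erg by 1.63 and Clec14a by 2.01. At variable volume Nusap1 differed by -1.92 and Scd1 by -3.04. Vgll4 differed by 1.41 at constant and 0.85 at variable volume, Nr1d1 by 1.84 and 2.51, and RNase_MRP by 5.43 and 5.54. All of these had an adjusted p under 0.05 in the test of the difference itself.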

How the results depend on the processing

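No paired analysis was possible because no replicate number occurs in both groups. The 2214 genes past the threshold became 866 in a fit of only the 2 groups, 701 without the 2 shallowest control_chronic libraries, and 204 to 3635 when single libraries were left out (204 without control_blank_016, 1136 without control_chronic_117, 1182 without control_blank_021, 1470 without control_chronic_113 and 3635 without control_blank_074). The 367 genes of constant volume became 1255 in a fit of only its groups, 686 under quantile normalization, 171 with thinned reads, 1 with the number series as a covariate and 2 to 1046 when single libraries were left out (2 without chronic_VCV_067 and 1046 without chronic_VCV_069). The 699 genes of variable volume became 1775 in a fit of only its groups, 1.2e3 under quantile normalization (607 higher and 597 lower), 327 with thinned reads and 0 with the covariate, and 3 to 1165 when single libraries were left out (3 without healthy_noisy_029 and 1165 without healthy_noisy_078). The 3564 differences from constant volume ranged from 943 (without control_blank_016) to 4933 (without control_blank_074), with 1150 without chronic_VCV_067. The 396 differences from variable volume became 258 with thinned reads and 223 without the 2 shallowest control_chronic libraries, and ranged from 193 (without healthy_noisy_029) to 383 when single libraries were left out. The cause of these shifts was not tested.

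Of 100 genes examined, 40 lost the threshold without control_blank_016, 25 without the 2 shallowest control_chronic libraries, 17 in the fit of only the 2 groups, 14 without control_chronic_117 and at most 9 under any other alternative. Genes that turned sign were not past the threshold: Pcna at 0.026 (thinned reads), 0.025 (without control_blank_016) and 0.0085 (without control_chronic_117; its range over single libraries left out reached -0.068), Mcm7 at -0.041 (edgeR with TMM scaling) and -0.093 (without control_blank_074, up to 0.087 without other single libraries). Without control_blank_016, Vwf was at -0.0014, Fn1 at -0.012 and Postn at -0.028, and the highest values of these 3 genes without another single library were 0.18, 0.41 and 1.07. Depth of 6024093 reads in the shallowest control_chronic library limits low genes most, such as Csrp3 or Mb.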
